A study of Rattus norvegicus with 21 samples.

Results

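Epithelial cells are held together by adherens junctions, desmosomes and tight junctions, and 7 genes of these structures were followed here in rat bladder carcinoma cells given fibroblast growth factor 1 (FGF1): Cdh1, Jup, Dsp, Dsc2, Cldn4, Ocln and Amotl2. They were taken as all probe sets whose only gene symbol in the array annotation was one of the 7 names. That gave 8 probe sets of 15866 tested, and 7 of 10411 gene symbols, with 2 probe sets for Ocln and 1 for each other gene. All 8 lay above the lower quartile of the array on 21 of 21 arrays, which is not a test of detection. Dsc2 had the lowest mean, at percentile 45.5 of all probe sets. In the narrow sense, the label of junction genes holds for the 6 genes described below as parts of adherens junctions, desmosomes or tight junctions. Amotl2 encodes a scaffold of the angiomotin family that binds junction complexes.

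The study measured total RNA on 21 Affymetrix expression arrays, 1 per sample, in a time course placed by its title in epithelial to mesenchymal transition. NBTII is an epithelial rat bladder carcinoma line, and NBTII-FGFR1 is the same line transfected with FGF receptor 1. Both lines were sampled at 0 h and after 0.5, 2, 6, 24 and 48 h of FGF1, given at 20 ng/ml together with heparin. Of the 12 groups of line and time, 9 had 2 arrays, while NBTII at 0 h and each line at 0.5 h had 1. The promoter behind the receptor, and whether NBTII-FGFR1 is 1 clone or a pool, are not given in the sources used here. No array after 0 h lacks FGF1, so time in culture, heparin and handling cannot be told apart from the ligand. The labels do not say whether replicates were separate cultures, so the p-values reflect only how far these samples lie apart, possibly for technical reasons, and the number of arrays limits the precision. Values are log2 signals, on which a difference of 1 is a doubling of signal. They can be compared between samples for 1 probe set and not between probe sets.

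E-cadherin, the product of Cdh1, joins neighbouring epithelial cells through its outer part and is anchored to actin through catenins. Plakoglobin (Jup) sits in adherens junctions and in desmosomes, where desmocollins such as Dsc2 span the membrane and desmoplakin (Dsp) ties the plaque to keratin filaments. Claudins such as Cldn4 and the membrane protein occludin (Ocln) form the tight junction strands that seal the space between cells. Loss of these contacts is a textbook part of the epithelial to mesenchymal transition, and NBTII cells are known for scattering when given FGF1.

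Of 6 measured epithelial markers, 4 had a mean level above every array median. Krt18 had a median of 5.44, and Krt19 never rose above the lower quartile (3.24 to 3.86). Marker means join different probe sets, so they are only a rough guide to cell type. The mean log2 signal of the 6 epithelial markers was between 7.37 and 9.12 on every array. That marker mean, which includes Cdh1, was 8.67 to 9.12 at 2 and 6 h and 7.37 to 8.10 at 24 and 48 h. Leukocyte markers (9 measured, 4 never above the lower quartile, Ptprc among them) had means of 4.30 to 4.56. Endothelial markers (6 measured, 3 never above it) had means of 4.09 to 4.42 and fibroblast markers (8 measured, 5 never above it) of 4.02 to 4.28. Of the endothelial markers, Esam read 6.39 to 7.07, above the median of every array. In these bulk samples, fewer cells of a type and less RNA per cell cannot be told apart. Array medians lay between 6.13 and 6.22, and arrays of 1 group correlated at r of 0.988 to 0.997 over all probe sets. The library labelled NBTII-FGFR1 0 h replicate 1 had a log2 Fgfr1 signal of 3.57. Its partner read 5.92, and NBTII at 0 h read 3.97. Over all probe sets, however, that library correlated best with its own partner (r = 0.995). It is called the doubted 0 h library below for its Fgfr1 signal alone. From 2 h on, the NBTII-FGFR1 arrays ranged from 4.56 to 7.58. The lowest of these was 24 h replicate 1, whose partner read 6.14, while NBTII at 24 h read 3.86 and 4.05. The library labelled NBTII-FGFR1 2 h replicate 1 correlated best with NBTII at 0.5 h (r = 0.990, against 0.988 with its own partner). That partner also matched the other line best, though at the same time (NBTII 2 h replicate 2, r = 0.993). NBTII 2 h replicate 2 matched it best in turn (0.993, against 0.992 with its own partner). A best match outside the group is thus not particular to 2 h replicate 1. Below, replicate 1 is called the doubted library, or the one that stood apart, only because its best match lay at another time. Whether it or its partner is the less typical array was not tested, and values without the partner are mostly not given. Where leaving out NBTII-FGFR1 0 h replicate 1 or 2 h replicate 1 ended a call of a junction gene named here, the value without it is given. The poly-A spikes added during labelling also read higher at 0 h (6.44 to 7.02) than on all later arrays (5.46 to 5.96), and the part of this in differences from 0 h was not tested.

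The broadest pattern among the genes was a peak in the first hours of FGF1 and lower levels later. Averaging 24 and 48 h and subtracting the average of 2 and 6 h compares 4 arrays with 4 in each line, all under FGF1 and none from 0 h. The 7 genes, and the partner lists below, were chosen with earlier results of these data known. Their counts beside the shares of all probe sets are therefore descriptions and no test of the genes as a set. In NBTII-FGFR1, 4 of the 8 probe sets fell and 0 rose, where 7.48% of all probe sets fell and 17.2% changed either way. In NBTII, 5 of 8 fell and 0 rose, where 5.82% of all probe sets fell and 11.9% changed either way. Cdh1, Cldn4, Jup and Dsp fell in both lines, and Dsc2 also in NBTII. For each of these 9 falls, every late array lay below every early one, a lack of overlap that 4.86% of all probe sets showed in NBTII-FGFR1 and 6.05% in NBTII. The median difference over the 8 probe sets was -0.67 in NBTII-FGFR1 and -0.87 in NBTII, beside medians of -0.007 and 0.026 over all probe sets.

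**Figure D1:**
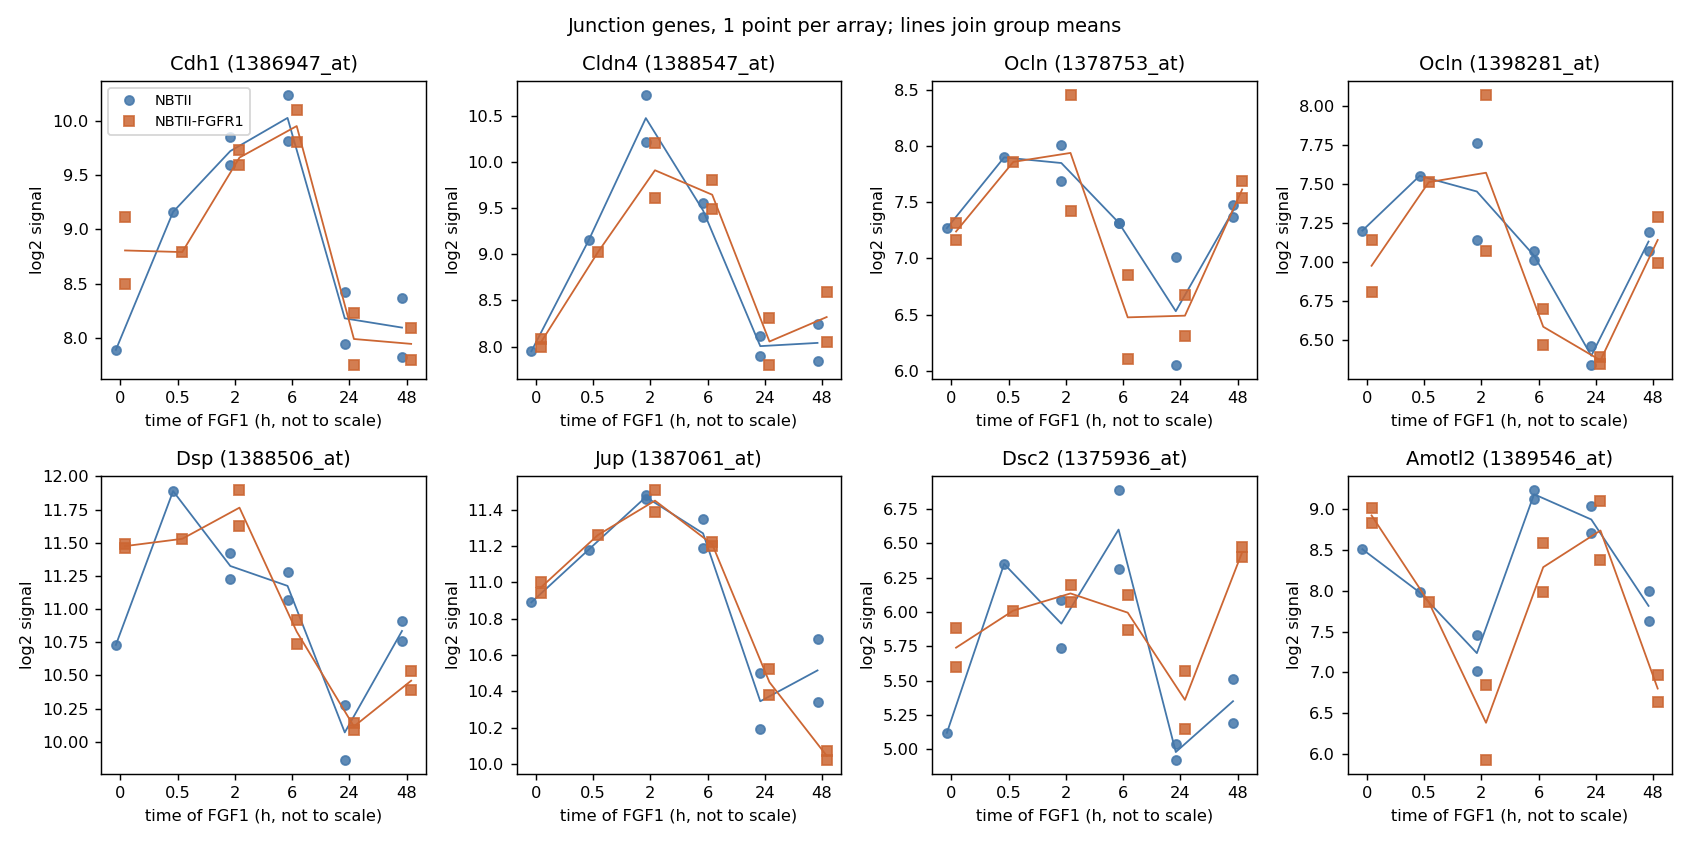
Log2 signal of each junction probe set on every array against the time of FGF1 in hours (categories, not to scale), with NBTII as circles and NBTII-FGFR1 as squares and lines through the group means. Cdh1, Cldn4, Jup and Dsp are lower on all 24 and 48 h arrays than on all 2 and 6 h arrays of the same line, whereas the Amotl2 group mean is lowest at 2 h in both lines, and in NBTII-FGFR1 is low again at 48 h.

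E-cadherin RNA had its highest group mean at 6 h in both lines, although the step from 2 to 6 h passed in neither. In NBTII the 2 and 6 h arrays overlapped. In NBTII, the Cdh1 log2 signal was 7.89 at 0 h, 9.16 at 0.5 h, 9.85 and 9.59 at 2 h, 10.24 and 9.81 at 6 h, 8.42 and 7.94 at 24 h, and 8.37 and 7.82 at 48 h. In NBTII-FGFR1 it was 9.11 and 8.50 at 0 h, 8.79 at 0.5 h, 9.73 and 9.59 at 2 h, 10.10 and 9.80 at 6 h, 8.23 and 7.75 at 24 h, and 8.09 and 7.80 at 48 h. All 8 arrays at 2 and 6 h lay above all other arrays of the series, and the 4 late groups overlapped each other. From early to late, Cdh1 fell by 1.84 ± 0.18 (SE) in NBTII-FGFR1 (3.57-fold lower, adjusted p = 1e-05) and by 1.73 ± 0.18 in NBTII (3.33-fold lower, adjusted p = 2.2e-05). Without the 2 h library that stood apart, the fall in NBTII-FGFR1 was 1.80. The difference between the falls of both lines was -0.10, with a 95% confidence interval of -0.64 to 0.43 (adjusted p = 0.93).

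Measured from 0 h instead, Cdh1 rose in both lines. In NBTII the rise was 1.83 ± 0.30 at 2 h (adjusted p = 0.0042) and 2.14 ± 0.30 at 6 h (adjusted p = 0.00095), each against the single 0 h array. In NBTII-FGFR1 it was 0.86 ± 0.25 at 2 h (adjusted p = 0.042) and 1.15 ± 0.25 at 6 h (adjusted p = 0.0041). These values depend on the 0 h replicates of that line (9.11 and 8.50): without replicate 1 the differences were 1.17 (adjusted p = 0.039) and 1.45 (adjusted p = 0.0049), and without replicate 2 they were 0.55 (adjusted p = 0.32) and 0.84 (adjusted p = 0.061). Without the 2 h library that stood apart, the 2 h difference was 0.79 (adjusted p = 0.14). At 48 h Cdh1 fell below the 0 h level of NBTII-FGFR1 by 0.86 ± 0.25 (adjusted p = 0.022), but without 0 h replicate 1 the difference was -0.55 (adjusted p = 0.25). In NBTII, 48 h stood at 0.21 ± 0.30 from 0 h (adjusted p = 0.89). The order of the 12 group means ran from 7.89 in NBTII at 0 h to 10.02 in NBTII at 6 h, and 3 of its 11 steps exceeded the within-group SD of 0.30: the one above the 5 lowest groups (NBTII at 0 h and both lines at 24 and 48 h), the one below NBTII at 0.5 h, and the one below NBTII-FGFR1 at 2 h.

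Among the tight junction genes, Cldn4 had the largest rise of the 8 probe sets at 0.5 h averaged over both lines, and at 2 h in each line. In NBTII alone, with 1 array at each time, Cdh1 and Dsc2 rose slightly more by 0.5 h. In NBTII, its log2 signal was 7.95 at 0 h, 9.15 at 0.5 h, 10.73 and 10.22 at 2 h, 9.40 and 9.55 at 6 h, 8.11 and 7.90 at 24 h, and 8.24 and 7.84 at 48 h. In NBTII-FGFR1 it was 8.0 and 8.08 at 0 h, 9.02 at 0.5 h, 10.21 and 9.61 at 2 h, 9.80 and 9.49 at 6 h, 8.31 and 7.80 at 24 h, and 8.59 and 8.05 at 48 h. The 0.5, 2 and 6 h arrays were all above 9, and the 0, 24 and 48 h arrays all below it, with overlap among the latter. Over both lines, Cldn4 rose by 1.09 ± 0.23 at 0.5 h (2.13-fold higher, adjusted p = 0.020). At 2 h it rose by 2.52 ± 0.30 in NBTII (adjusted p = 0.00028) and by 1.87 ± 0.24 in NBTII-FGFR1 (adjusted p = 0.00025). At 6 h the rise was 1.52 ± 0.30 in NBTII (adjusted p = 0.0072) and 1.61 ± 0.24 in NBTII-FGFR1 (adjusted p = 0.00032). Without the doubted 0 h library, the NBTII-FGFR1 rises were 1.83 (adjusted p = 0.0050) and 1.57 (adjusted p = 0.0053), and the 0.5 h rise over both lines 1.07 (adjusted p = 0.061). Without the 2 h library that stood apart, the 2 h rise in NBTII-FGFR1 was 1.57 (adjusted p = 0.0022).

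No difference of Cldn4 from 0 h passed at 24 or 48 h. At 24 h it was 0.05 in NBTII (95% confidence interval -0.58 to 0.69, adjusted p = 0.98) and 0.02 in NBTII-FGFR1 (-0.50 to 0.53, adjusted p = 0.99). From 2 and 6 h to 24 and 48 h it fell by 1.96 ± 0.17 in NBTII (adjusted p = 7.7e-06) and by 1.59 ± 0.17 in NBTII-FGFR1 (adjusted p = 2.7e-05), or by 1.44 in NBTII-FGFR1 without the doubted 2 h library. In NBTII it had already fallen by 1.0 ± 0.24 between 2 and 6 h (adjusted p = 0.037). That call was lost in 5 of 18 fits that left out 1 array each. The adjusted p was 0.32 without NBTII 2 h replicate 1 and 0.052 without the doubted 0 h library of the other line. In NBTII-FGFR1 the same step was -0.27 ± 0.24 (adjusted p = 0.46), and whether the lines differ in it was not tested.

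For occludin, the second tight junction gene, the changes that passed were between neighbouring times. Its 2 probe sets correlated at r = 0.98 over the 12 group means, and the values are those of the one with the higher mean. In NBTII its log2 signal was 7.27 at 0 h, 7.90 at 0.5 h, 8.01 and 7.69 at 2 h, 7.32 and 7.32 at 6 h, 7.01 and 6.05 at 24 h, and 7.48 and 7.37 at 48 h. In NBTII-FGFR1 it was 7.32 and 7.16 at 0 h, 7.86 at 0.5 h, 8.46 and 7.42 at 2 h, 6.85 and 6.10 at 6 h, 6.67 and 6.31 at 24 h, and 7.69 and 7.54 at 48 h. Levels were lowest at 24 h in NBTII, and at 6 and 24 h in NBTII-FGFR1, and the 48 h arrays of each line lay above its 24 h arrays. No difference of Ocln from 0 h passed at any time. At 6 h in NBTII-FGFR1 it was -0.77 (adjusted p = 0.11), and passed without the doubted 2 h library (adjusted p = 0.049). In NBTII-FGFR1, both probe sets fell between 2 and 6 h (-1.47 ± 0.33, adjusted p = 0.0068, and -0.99 ± 0.25, adjusted p = 0.016). These falls lean on the 2 h library that stood apart: without it they were -0.94 (adjusted p = 0.089) and -0.49 (adjusted p = 0.18).

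Between 24 and 48 h in NBTII-FGFR1, this probe set rose by 1.13 ± 0.33 (adjusted p = 0.041), while the other stood at 0.77 ± 0.25 (adjusted p = 0.073). The call was lost in 10 of the 18 fits with 1 array left out, with an adjusted p of 0.24 without NBTII-FGFR1 48 h replicate 1 and 0.054 without the doubted 0 h library. The same step in NBTII was 0.89 ± 0.33 and 0.73 ± 0.25 (adjusted p = 0.32 and 0.29). The differences between the late and the early average did not pass in either line. They were -0.61 ± 0.23 and -0.48 ± 0.18 in NBTII (adjusted p = 0.11 for both) and -0.16 ± 0.23 and -0.32 ± 0.18 in NBTII-FGFR1 (adjusted p = 0.73 and 0.26). Without the doubted 2 h library of the other line, whose spread enters the fit, both passed in NBTII (adjusted p = 0.044 and 0.020). Of the 11 steps between ordered group means, only the step above the 3 lowest (6 h in NBTII-FGFR1 and 24 h in both lines) exceeded the within-group SD, for each probe set.

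RefSeq promoter windows on the GRCr8 build, from 250 bases before to 50 after the gene's start, were found for 5 of the 7 genes (Jup, Dsp, Dsc2, Ocln and Amotl2). They were searched on both strands for CAGGTG, the E-box core that the repressors Snail and ZEB can bind, for TGANTCA, an AP-1 site, and for GGAATG, a TEAD site. CAGGTG was in 4 of the 5 windows (Jup, Dsp, Dsc2 and Ocln), where 18.8% of 33469 rat promoter windows hold it. The window of Ocln, chr2:33441149-33441448 on the minus strand, is shown because it holds the core at 2 positions, -137 and -68 from the start, given in capitals:
Ocln: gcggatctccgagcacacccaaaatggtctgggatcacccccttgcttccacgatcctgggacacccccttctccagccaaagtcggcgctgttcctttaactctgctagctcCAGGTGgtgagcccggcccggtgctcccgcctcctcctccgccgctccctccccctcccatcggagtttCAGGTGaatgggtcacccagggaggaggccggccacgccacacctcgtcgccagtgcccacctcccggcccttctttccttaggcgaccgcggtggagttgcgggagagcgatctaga
TGANTCA was in 0 of the 5 windows (7.33% of all). The 5 windows were 60.7% to 75% G and C, against a median of 51.7% over all windows. A match is a description of the letters, and binding was not measured in these samples.

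The desmosomal genes Dsp and Jup fell below 0 h at 48 h in NBTII-FGFR1 with either 0 h array left out, which among the other members held for Amotl2 only. In NBTII, the desmoplakin gene Dsp had log2 signals of 10.73 at 0 h, 11.89 at 0.5 h, 11.23 and 11.42 at 2 h, 11.28 and 11.07 at 6 h, 10.28 and 9.86 at 24 h, and 10.91 and 10.76 at 48 h. In NBTII-FGFR1 they were 11.46 and 11.49 at 0 h, 11.53 at 0.5 h, 11.90 and 11.63 at 2 h, 10.92 and 10.74 at 6 h, 10.14 and 10.09 at 24 h, and 10.39 and 10.53 at 48 h. Dsp was lowest at 24 h in both lines. In NBTII-FGFR1 the 6 h arrays already lay below all arrays from 0 to 2 h, whereas in NBTII the 2 and 6 h arrays overlapped. From 2 to 6 h Dsp fell by 0.94 ± 0.15 in NBTII-FGFR1 (adjusted p = 0.00084; -0.80 and 0.012 without the doubted 2 h library). In NBTII the same step was -0.15 ± 0.15 (adjusted p = 0.77), and whether the lines differ in it was not tested.

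Against 0 h in NBTII-FGFR1, Dsp fell by 0.64 ± 0.15 at 6 h (adjusted p = 0.0061), by 1.36 ± 0.15 at 24 h (2.56-fold lower, adjusted p = 0.00016) and by 1.01 ± 0.15 at 48 h (adjusted p = 0.00021). Without the doubted 0 h library the differences were -0.66, -1.37 and -1.03, with adjusted p of 0.037, 0.0035 and 0.0031. In NBTII, against its single 0 h array, they were 0.45 ± 0.18, -0.66 ± 0.18 and 0.11 ± 0.18, and none passed (adjusted p = 0.20, 0.12 and 0.91). That NBTII array, at 10.73, lay below both 0 h arrays of NBTII-FGFR1. At 0.5 h over both lines Dsp rose by 0.61 ± 0.14 (adjusted p = 0.031, or 0.084 without the doubted 0 h library). This average rests on NBTII, which went from 10.73 to 11.89 with 1 array at each time, while NBTII-FGFR1 went from a mean of 11.47 to 11.53. From the early to the late average Dsp fell by 1.01 ± 0.11 in NBTII-FGFR1 and by 0.80 ± 0.11 in NBTII (adjusted p = 2e-05 and 0.00019). Without the doubted 2 h library the first was -0.94. Between 24 and 48 h it stood at 0.77 ± 0.15 in NBTII (adjusted p = 0.063) and 0.34 ± 0.15 in NBTII-FGFR1 (adjusted p = 0.19), with the 48 h arrays above the 24 h arrays in both.

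Plakoglobin RNA varied least, over a 2.80-fold range. In NBTII, Jup had log2 signals of 10.89 at 0 h, 11.18 at 0.5 h, 11.48 and 11.46 at 2 h, 11.35 and 11.19 at 6 h, 10.50 and 10.19 at 24 h, and 10.69 and 10.34 at 48 h. In NBTII-FGFR1 it had 10.94 and 10.999 at 0 h, 11.26 at 0.5 h, 11.39 and 11.51 at 2 h, 11.20 and 11.22 at 6 h, 10.52 and 10.38 at 24 h, and 10.02 and 10.07 at 48 h. The 24 and 48 h arrays of both lines lay below every array from 0 to 6 h, and the NBTII-FGFR1 48 h arrays were the lowest of all. From the early to the late average Jup fell by 1.08 ± 0.09 in NBTII-FGFR1 (adjusted p = 4.6e-06, or by 1.11 without the doubted 2 h library) and by 0.94 ± 0.09 in NBTII (adjusted p = 2e-05). Against 0 h in NBTII-FGFR1, Jup fell by 0.52 ± 0.13 at 24 h (adjusted p = 0.033) and by 0.92 ± 0.13 at 48 h (1.90-fold lower, adjusted p = 0.00019). Without the doubted 0 h library these were -0.55 (adjusted p = 0.14) and -0.95 (adjusted p = 0.0025). In NBTII the same differences were -0.55 ± 0.16 and -0.37 ± 0.16 (adjusted p = 0.16 and 0.37). A rise of 0.48 ± 0.13 at 2 h in NBTII-FGFR1 (adjusted p = 0.036) was lost in 6 of 18 fits with 1 array left out. Without the doubted 0 h library it was 0.45 (adjusted p = 0.19), and without the doubted 2 h library 0.54 (adjusted p = 0.055).

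The promoter windows of these 2 plaque genes are shown because both genes fell late in both lines and each window holds CAGGTG (capitals), at -85 in Dsp (chr17:26877072-26877371, minus strand) and at -101 in Jup (chr10:85827380-85827679, minus strand):
Dsp: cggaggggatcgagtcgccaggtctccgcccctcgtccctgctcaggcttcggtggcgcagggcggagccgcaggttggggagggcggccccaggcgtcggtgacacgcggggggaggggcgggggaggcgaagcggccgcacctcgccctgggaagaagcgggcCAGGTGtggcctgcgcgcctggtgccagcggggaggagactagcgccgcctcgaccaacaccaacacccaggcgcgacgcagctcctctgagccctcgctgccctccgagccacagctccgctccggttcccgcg
Jup: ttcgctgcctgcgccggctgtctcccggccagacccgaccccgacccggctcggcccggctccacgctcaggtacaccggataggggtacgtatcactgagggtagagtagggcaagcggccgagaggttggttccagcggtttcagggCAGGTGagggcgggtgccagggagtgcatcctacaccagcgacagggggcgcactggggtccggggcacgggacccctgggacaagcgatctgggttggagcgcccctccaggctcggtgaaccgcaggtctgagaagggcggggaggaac
Neither window holds TGANTCA or GGAATG.

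Desmocollin 2 was the only member to pass between the lines at the late times. In NBTII, Dsc2 had log2 signals of 5.12 at 0 h, 6.35 at 0.5 h, 6.09 and 5.74 at 2 h, 6.89 and 6.31 at 6 h, 5.04 and 4.92 at 24 h, and 5.19 and 5.51 at 48 h. In NBTII-FGFR1 it had 5.88 and 5.60 at 0 h, 6.01 at 0.5 h, 6.07 and 6.2 at 2 h, 5.87 and 6.12 at 6 h, 5.15 and 5.57 at 24 h, and 6.47 and 6.40 at 48 h. In NBTII the late arrays lay below all early ones, while in NBTII-FGFR1 the 24 h arrays were the lowest and the 48 h arrays the highest of the line. At 24 and 48 h Dsc2 was higher in NBTII-FGFR1 than in NBTII by 0.73 ± 0.14 (adjusted p = 0.0045). This was 1 of 8 probe sets, where 6.27% of all probe sets were higher and 1815 of 15866 differed either way. The arrays of the lines overlapped because of 24 h. The lowest late NBTII array, at 4.92, was not far above the lower quartiles of the arrays (4.36 to 4.54). The part of low signal in this difference was not tested. Both NBTII-FGFR1 arrays at 0 h (5.88 and 5.60) also lay above the NBTII array at 0 h (5.12). How much of the late difference was present before FGF1 was not tested.

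From the early to the late average, Dsc2 fell by 1.09 ± 0.14 in NBTII (adjusted p = 0.00016) and stood at -0.17 ± 0.14 in NBTII-FGFR1 (adjusted p = 0.49). The difference between these changes was 0.92 ± 0.20, with a 95% confidence interval of 0.50 to 1.34, and did not pass over all probe sets (adjusted p = 0.097). It passed in 3 of 18 fits with 1 array left out. In this line-by-time comparison 0 of the 8 probe sets passed with limma, where 0.164% of all probe sets did, and 1 of 8 had an unadjusted p under 0.05. Within NBTII-FGFR1, Dsc2 rose by 1.08 ± 0.20 from 24 to 48 h (2.11-fold higher, adjusted p = 0.0034), a call lost without 24 h replicate 1 (0.87, adjusted p = 0.067). At 48 h it had risen by 0.70 ± 0.20 over 0 h (adjusted p = 0.019), or 0.84 (adjusted p = 0.036) without the doubted 0 h library and 0.56 (adjusted p = 0.16) without the other. In NBTII it rose by 1.48 ± 0.24 at 6 h against the single 0 h array (adjusted p = 0.0024). Over both lines it rose by 0.75 ± 0.19 at 0.5 h at the edge of the threshold (adjusted p = 0.0497, or 0.069 without the doubted 0 h library), and that call was lost in 10 of 18 fits with 1 array left out. The mean went from 5.12 to 6.35 in NBTII and from 5.74 to 6.01 in NBTII-FGFR1.

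**Figure D2:**
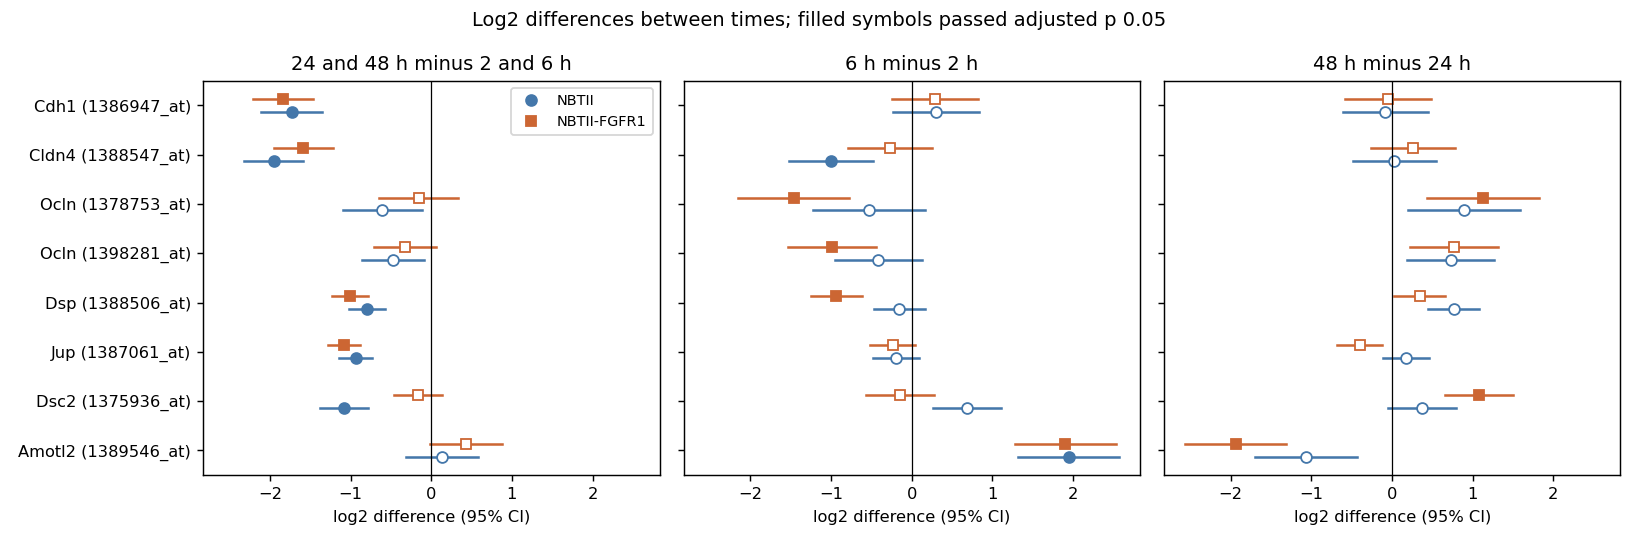
Log2 difference with its 95% confidence interval for each junction probe set, between the average of 24 and 48 h and that of 2 and 6 h, between 6 and 2 h, and between 48 and 24 h, in NBTII (circles) and NBTII-FGFR1 (squares). Filled symbols passed an adjusted p of 0.05: Cdh1, Cldn4, Dsp and Jup fell in both lines from early to late, Dsc2 in NBTII, and Amotl2 rose from 2 to 6 h in both lines and fell from 24 to 48 h in NBTII-FGFR1.

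Amotl2 fell at 2 h in NBTII-FGFR1, when Cldn4 and Cdh1 rose. It encodes angiomotin-like 2, which links junction complexes to actin and binds the Hippo effector YAP. In NBTII its log2 signal was 8.52 at 0 h, 7.98 at 0.5 h, 7.46 and 7.01 at 2 h, 9.24 and 9.13 at 6 h, 8.71 and 9.04 at 24 h, and 8.0 and 7.63 at 48 h. In NBTII-FGFR1 it was 9.02 and 8.83 at 0 h, 7.86 at 0.5 h, 6.84 and 5.92 at 2 h, 8.59 and 7.99 at 6 h, 9.10 and 8.38 at 24 h, and 6.63 and 6.97 at 48 h. It was low at 2 h, when Cldn4 was at its highest, high at 6 and 24 h, and lower again at 48 h, and its range over all arrays was the widest of the 8 probe sets (9.97-fold). The 2 h and 48 h arrays of NBTII-FGFR1 lay below every other array of that line.

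In NBTII-FGFR1, Amotl2 fell by 2.54 ± 0.30 at 2 h (5.83-fold lower, adjusted p = 9.7e-05) and by 2.13 ± 0.30 at 48 h (4.36-fold lower, adjusted p = 0.00015), both against 0 h. Without the doubted 0 h library these were -2.45 and -2.03 (adjusted p = 0.0029 and 0.0031), and without the doubted 2 h library the 2 h difference was -3.00. Between these falls it rose by 1.91 ± 0.30 from 2 to 6 h (adjusted p = 0.00074, or by 2.37 without the doubted 2 h library), to -0.64 ± 0.30 from 0 h at 6 h (adjusted p = 0.15) and -0.19 ± 0.30 at 24 h (adjusted p = 0.80). It then fell by 1.94 ± 0.30 from 24 to 48 h (adjusted p = 0.0010). In NBTII, Amotl2 rose from 2 to 6 h by 1.95 ± 0.30 (adjusted p = 0.0032). Its 2 h difference from the single 0 h array was -1.28 ± 0.36 (adjusted p = 0.076), and the step from 24 to 48 h was -1.06 ± 0.30 (adjusted p = 0.17).

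Averaged over 2 and 6 h, Amotl2 was lower in NBTII-FGFR1 than in NBTII by 0.87 ± 0.21 (adjusted p = 0.031), the only one of the 8 probe sets that differed there, where 1.8% of all probe sets were lower. That call was lost in 5 of 18 fits with 1 array left out, with an adjusted p of 0.13 without NBTII-FGFR1 6 h replicate 2. Without the doubted 2 h library the difference was -1.10. The call was lost without the partner of that library, which read 5.92, and the arrays of the lines overlapped. At 24 and 48 h the line difference of Amotl2 was -0.57 ± 0.21 (adjusted p = 0.090). The promoter window of Amotl2 (chr8:112182376-112182675, plus strand) is shown because it is the one that lacks CAGGTG and holds the TEAD letters GGAATG, here as CATTCC on the opposite strand at -76 (capitals), which 14.2% of all windows hold on either strand:
Amotl2: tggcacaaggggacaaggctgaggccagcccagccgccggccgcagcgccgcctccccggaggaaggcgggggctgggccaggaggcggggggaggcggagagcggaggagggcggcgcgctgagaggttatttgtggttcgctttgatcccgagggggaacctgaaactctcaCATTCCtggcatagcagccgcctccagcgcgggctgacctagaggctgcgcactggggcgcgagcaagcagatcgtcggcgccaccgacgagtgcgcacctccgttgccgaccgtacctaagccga

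Counted against 0 h, 3 of 8 probe sets had risen at 0.5 h over both lines (Cldn4, Dsp and Dsc2), where 1.68% of all probe sets had, and 0 had fallen. Each line had 1 array at 0.5 h, and for Dsp and Dsc2 the rise lay mostly in NBTII. At 2 h in NBTII-FGFR1, 3 rose (Cldn4, Cdh1 and Jup) and 1 fell (Amotl2), where 5.27% of all probe sets rose and 4.08% fell. At 6 h 2 rose (Cldn4 and Cdh1) and 1 fell (Dsp), where 9.38% rose and 11.9% fell. At 24 h 2 fell (Dsp and Jup), where 2.73% did. At 48 h 4 fell (Amotl2, Dsp, Jup and Cdh1) and 1 rose (Dsc2), where 10.9% fell and 10.5% rose. In NBTII, 2 rose at 2 h (Cldn4 and Cdh1), where 1.95% did, and 3 at 6 h (Cdh1, Cldn4 and Dsc2), where 3.7% did. At 24 and 48 h in NBTII 0 of 8 passed with limma, where 0.939% and 0.908% of all probe sets did, and 3 and 1 of 8 had an unadjusted p under 0.05. The larger errors of NBTII come from its single 0 h array, assumed to vary like the others, so the lines' counts at these times are not a test of their difference.

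**Figure D3:**
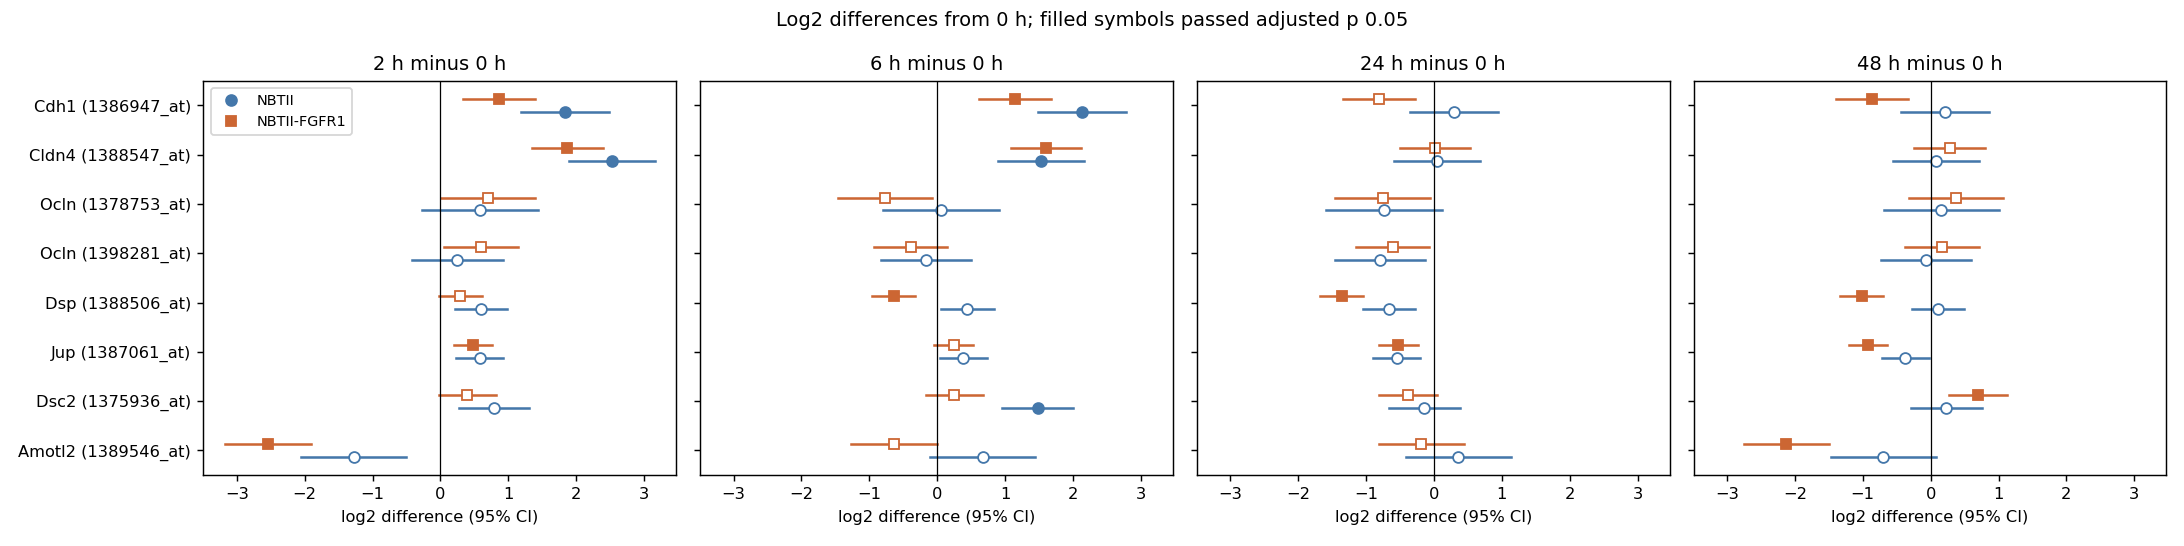
Log2 difference from 0 h with its 95% confidence interval for each junction probe set at 2, 6, 24 and 48 h of FGF1, in NBTII (circles, 1 array at 0 h) and NBTII-FGFR1 (squares, 2 arrays at 0 h). Filled symbols passed an adjusted p of 0.05: Cldn4 and Cdh1 rose at 2 and 6 h in both lines, and at 48 h in NBTII-FGFR1 Amotl2, Dsp, Jup and Cdh1 fell while Dsc2 rose.

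The steps from 2 to 6 h and from 24 to 48 h were added after the values were seen. From 2 to 6 h, 3 probe sets fell (Dsp and both of Ocln) and 1 rose (Amotl2) in NBTII-FGFR1, where 9.59% of all probe sets fell and 7.4% rose. In NBTII 1 fell (Cldn4) and 1 rose (Amotl2), where 1.08% fell and 2.22% rose. From 24 to 48 h in NBTII-FGFR1, 2 rose (Dsc2 and 1 of Ocln) and 1 fell (Amotl2), where 4.13% rose and 5.44% fell. In NBTII 0 of 8 passed with limma, where 0.063% of all probe sets did, and 4 of 8 had an unadjusted p under 0.05. The differences of Cdh1 and Cldn4 from 24 to 48 h lay between -0.08 and 0.26 in both lines, and none passed.

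Over the 12 group means, the members fell into a description of likeness that shares the same arrays throughout. Cdh1 ran with Cldn4 (Pearson r = 0.89) and Jup (r = 0.84), and Jup with Dsp (r = 0.80). Dsp ran with the 2 Ocln probe sets (r = 0.77 and 0.82), whereas Cdh1 had r of 0.22 and 0.28 with them. Amotl2 had a negative r with each of the other 7 probe sets, from -0.10 with Cdh1 to -0.65 with the brighter Ocln probe set. Of all other genes, Jup was most like Trim29 (r = 0.98), Nectin1 (0.97), a nectin of adherens junctions, and Perp (0.97), a desmosomal membrane protein. Cdh1 was most like the urokinase gene Plau (0.94), Dnase1l3 (0.93) and Lypd3 (0.93). Cldn4 was most like the cell cycle inhibitor gene Cdkn1a (0.96), the activin subunit gene Inhbb (0.96) and Nfkb1 (0.95). Dsp was most like Pan3, Gab1 and App (0.95 each), Dsc2 like Irf2bp2 (0.88), Zfyve26 and Syvn1 (0.87 each), and Ocln like Dag1 (0.93), Babam2 (0.92) and Mfsd6 (0.90). Amotl2 was most like Ppan (0.98), a ribosome biogenesis gene, Polr1g (0.93), a subunit gene of RNA polymerase I, and Imp3 (0.91), of a small nucleolar ribonucleoprotein, and most opposite to Cebpb (-0.95). With Spearman's rank correlation in place of Pearson's, 2 of the 3 names stayed for Jup, 1 for Dsp, 1 for Amotl2 and 0 for the other 4 genes.

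Partners of these genes were read from lists of pathway members. Between the early and the late average, 7.48% of all probe sets fell and 9.69% rose in NBTII-FGFR1. In NBTII 5.82% fell and 11.9% changed either way. These shares are from the main fit. Shares by direction for fits with arrays left out are not given here, so list counts from those fits stand without one. The genes named were those with the smallest p in this same comparison, so their values describe the lists' extremes. Of the 27 calls named for it, 26 were kept in every fit with 1 array left out. Of 3 measured desmosome partners, 2 fell from the early to the late average in NBTII-FGFR1 and 1 in NBTII. Perp fell in both (-0.88 ± 0.11 and -0.56 ± 0.11, adjusted p = 0.0001 and 0.0041). Evpl, which encodes the plaque protein envoplakin, fell in NBTII-FGFR1 (-0.84 ± 0.16, adjusted p = 0.0025) and stood at -0.38 ± 0.16 in NBTII (adjusted p = 0.18). The plakophilin gene Pkp2 did not pass (0.19 ± 0.12 and -0.14 ± 0.12). The list's medians were -0.84 and -0.38, beside -0.007 and 0.026 over all probe sets.

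Of 14 adherens junction partners, 5 fell in NBTII-FGFR1 and 7 in NBTII, where 7.48% and 5.82% of all probe sets fell. None rose, and the medians were -0.15 and -0.31. The nectin genes Nectin1 (-1.05 ± 0.15 and -0.72 ± 0.15) and Nectin4 (-0.72 ± 0.10 and -0.87 ± 0.10) fell in both lines. So did Epcam (-0.64 ± 0.11 and -0.53 ± 0.11), an epithelial adhesion molecule, and Ctnnd1 (-0.48 ± 0.10 and -0.51 ± 0.10), the p120 catenin that stabilises E-cadherin at the membrane. The nectin-like receptor gene Pvr fell in both (-0.66 ± 0.15 and -1.13 ± 0.15), after a rise at 2 h of 1.93 ± 0.21 in NBTII-FGFR1 (adjusted p = 4.7e-05) and 2.43 ± 0.25 in NBTII (adjusted p = 0.00014). At 2 h in NBTII-FGFR1, 7 of the 14 had risen, where 5.27% of all probe sets had, and 2 without either or both of the doubted libraries. In NBTII 2 of 14 had, where 1.95% had.

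Of 16 measured genes of tight junctions and polarity, 1 fell and 2 rose in NBTII-FGFR1 and 1 fell and 0 rose in NBTII, with medians of 0.06 and 0.02. The falls were near the share over all probe sets, as were the rises in NBTII-FGFR1 (9.69% of all). Without the doubted 2 h library 5 rose in NBTII-FGFR1 (Cldn1, Magi3 and Mpdz beside the pair below) and 1 in NBTII (Mpdz). F11r, which encodes the junctional adhesion molecule JAM-A, fell in both lines (-0.80 ± 0.13 and -0.84 ± 0.13, adjusted p = 0.00067 and 0.00062). Cldn12 (0.46 ± 0.09) and Tjp1 (0.36 ± 0.10), which encodes the scaffold ZO-1, rose in NBTII-FGFR1 (adjusted p = 0.0034 and 0.017, the latter 0.083 without NBTII-FGFR1 24 h replicate 1), and stood at -0.05 ± 0.09 and 0.05 ± 0.10 in NBTII. Magi3 (0.47 ± 0.16 and 0.07 ± 0.16) and Mpdz (0.30 ± 0.13 and 0.34 ± 0.13) did not pass.

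Of 16 angiomotin and Hippo pathway genes, 1 rose and 1 fell in NBTII-FGFR1, where 9.69% of all probe sets rose and 7.48% fell. Neither count exceeded its share. In NBTII 0 passed with limma, where 11.9% of all probe sets changed either way, and 5 of 16 had an unadjusted p under 0.05. Without the doubted 2 h library, 3 rose in each line (Lats2, Stk3 and Ajuba). The kinase gene Lats2 rose by 0.55 ± 0.11 (adjusted p = 0.0029), and stood at 0.35 ± 0.11 in NBTII (adjusted p = 0.050). Nf2, which encodes merlin, fell by 0.67 ± 0.12 (adjusted p = 0.0015), and stood at -0.29 ± 0.12 in NBTII. The paralogue Amot (-0.27 ± 0.10 and 0.06 ± 0.10), Tead1 (0.41 ± 0.16 and 0.21 ± 0.16) and Stk3 (0.31 ± 0.14 and 0.38 ± 0.14) did not pass.

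Among 6 measured repressors of E-cadherin transcription, Zeb1 rose late in NBTII-FGFR1. Its log2 signal in NBTII was 6.24 at 0 h, 6.54 at 0.5 h, 6.90 and 7.31 at 2 h, 6.59 and 6.62 at 6 h, 6.80 and 6.52 at 24 h, and 6.80 and 6.80 at 48 h. In NBTII-FGFR1 it was 6.46 and 6.25 at 0 h, 6.43 at 0.5 h, 6.69 and 7.16 at 2 h, 6.95 and 7.16 at 6 h, 6.53 and 7.0 at 24 h, and 7.52 and 7.47 at 48 h. The NBTII-FGFR1 48 h arrays were the highest of the series. Against 0 h in this line Zeb1 rose by 0.70 ± 0.18 at 6 h (adjusted p = 0.013) and by 1.14 ± 0.18 at 48 h (adjusted p = 0.00045). It was the only one of the 6 to pass there, where 9.38% and 10.5% of all probe sets rose. The 48 h rise was kept in each of 18 fits with 1 array left out, and the 6 h rise was lost in 2, with an adjusted p of 0.11 without NBTII-FGFR1 6 h replicate 2. From 24 to 48 h it rose by 0.73 ± 0.18 (adjusted p = 0.021), or stood at 0.49 (adjusted p = 0.27) without NBTII-FGFR1 24 h replicate 1. In NBTII the differences from 0 h were 0.86, 0.36, 0.42 and 0.56 (each ± 0.23) at 2, 6, 24 and 48 h, and none passed (adjusted p = 0.056, 0.47, 0.56 and 0.33). Without the doubted 2 h library the adjusted p at 2 h was 0.026 in NBTII, and in NBTII-FGFR1 the 2 h difference went from 0.57 (adjusted p = 0.067) to 0.81 (adjusted p = 0.024). At 24 and 48 h the line difference of Zeb1 was 0.40 ± 0.13 (adjusted p = 0.060).

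From the early to the late average, 0 of the 6 repressors passed with limma in NBTII-FGFR1 or NBTII, where 17.2% and 11.9% of all probe sets changed. Of the 6, 1 in NBTII-FGFR1 and 0 in NBTII had an unadjusted p under 0.05. In NBTII-FGFR1 and NBTII, the values were 0.14 ± 0.13 and -0.12 ± 0.13 for Zeb1, and -0.09 ± 0.11 and 0.08 ± 0.11 for Snai1. For Twist1 they were -0.03 ± 0.07 and -0.04 ± 0.07, for Twist2 0.02 ± 0.11 and 0.09 ± 0.11, and for Tcf3 -0.32 ± 0.12 and -0.04 ± 0.12. The early and late averages of Twist1, 3.73 to 3.78 over both lines, lay below the lower quartile of every array (4.36 to 4.54). Those of Twist2, 4.33 to 4.42, lay near it. At such levels, differences near 0 do not show that either gene was unchanged. Tcf3 had risen at 2 h in NBTII-FGFR1 (0.66 ± 0.17, adjusted p = 0.029). Without the doubted 0 h library that difference was 0.52 (adjusted p = 0.23), and without the doubted 2 h library 0.69 (adjusted p = 0.063). Of the 12 names on this list, older symbols included, 6 had a probe set with a single symbol. Snai2, Snai3, Zeb2 and Klf8 had none, so the counts say nothing about them.

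Keratins form the filaments that desmoplakin anchors. Of 9 measured, 5 fell in NBTII-FGFR1 (7 without the doubted 2 h library) and 6 in NBTII, where 7.48% and 5.82% of all probe sets fell. None rose, and the median was -1.21 in each line. In NBTII-FGFR1 and NBTII, the differences were -2.75 ± 0.18 and -1.58 ± 0.18 for Krt5, -3.51 ± 0.35 and -2.26 ± 0.35 for Krt15, -1.37 ± 0.09 and -1.24 ± 0.09 for Krt14, and -1.53 ± 0.20 and -1.21 ± 0.20 for Krt8. All 8 passed, with adjusted p-values up to 0.00086. Krt5 and Krt14 are keratins of basal cells, and Krt8 of simple epithelium.

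**Figure D4:**
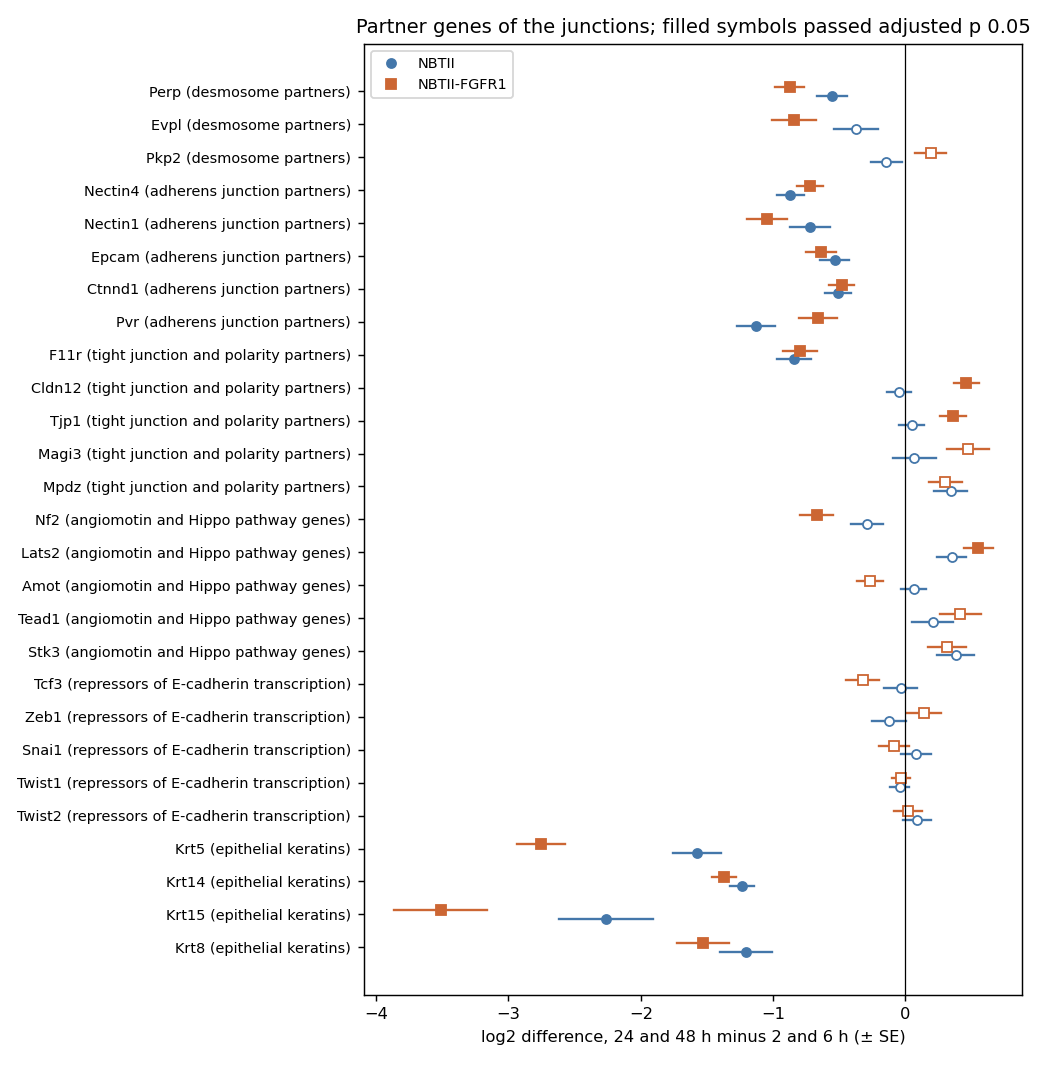
Log2 difference between the average of 24 and 48 h and that of 2 and 6 h, with its standard error, for the named partner genes of each list, in NBTII (circles) and NBTII-FGFR1 (squares). Filled symbols passed an adjusted p of 0.05: nectins, Epcam, F11r, Perp and keratins lie below 0 in both lines. None of the repressors of E-cadherin transcription passed in this average, which joins the 24 h and the 48 h values of Zeb1. Of these, Twist1 averaged below the lower quartile of every array, and Twist2 near it.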

How the data were processed

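Total RNA of 21 samples was measured on Affymetrix arrays. The authors deposited log2 signals, which the submitters' processing notes ascribe to RMA with no version. RMA pulls arrays towards 1 distribution, so differences are relative to the array. The table holds 15923 probe sets, of which 57 controls were left out and 15866 tested with no filter on level; 12783 carry 1 gene symbol. Means of the 12 groups of line and time were modelled in limma 3.58.1 under R 4.3.3 (9 residual and 5.68 prior degrees of freedom). Benjamini-Hochberg adjustment ran over all probe sets of a comparison, with a threshold of 0.05. Errors are the fit's standard errors. There were 14 comparisons, and 4 steps were added after values were seen. The members and lists were chosen with earlier results of these data known. Partner lists used each gene's probe set with the highest mean; those named have the smallest p for 24 and 48 h against 2 and 6 h, up to 4 in NBTII-FGFR1 and 2 in NBTII per list. Per member, the 3 genes of highest Pearson r were named. Alternatives were a replicate block, a filter at the median level, only the arrays compared, array weights, eBayes with trend and robust set, quantile normalization applied again, and each of 18 arrays left out. The fit was tested on simulated data. Replicate numbers paired samples across groups only in part (r of -0.13 to 0.35 over 36 pairs of groups, 15 above 0.1), and the main fit had no replicate term. Promoters came from RefSeq (GRCr8). Python 3.11.15 with numpy 2.4.6, pandas 2.3.3 and matplotlib 3.10.9 made the tables and plots.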

Additional observations from a re-analysis of the deposited data

How the results depend on the processing

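All 9 falls from 2 and 6 h to 24 and 48 h kept their direction and their calls in every alternative run, except that Dsc2 is not tested when probe sets below the median level are left out. Of 3582 recomputed member values, 3432 kept their call, 93 lost one, 57 gained one and 0 reversed; losses not given above had no test of their cause. The 18 fits that left out 1 array never left out NBTII at 0 h or either 0.5 h array, so they say nothing about these. The labels do not pair the samples by replicate number, and over all probe sets the numbers paired them only in part. In that check 14 of 18 samples matched best with one of their own number. The 2 arrays of a group mirror each other there, so these are not 18 separate observations. Replicate 1 lay above replicate 2 in 9 of 9 groups for Cdh1 and for the brighter Ocln probe set. With a replicate block, the late line difference had 2 called probe sets in place of 1. Over 144 member tests 7 calls were gained and 1 lost (Dsc2 at 0.5 h, adjusted p = 0.060). The gains were Cdh1 at 0.5 h (0.028) and at 24 h in NBTII-FGFR1 (0.0020), Ocln at 6 h in NBTII-FGFR1 (0.025), both Ocln probe sets from early to late in NBTII (0.022 and 0.046), the other Ocln probe set from 24 to 48 h in NBTII-FGFR1 (0.029) and the late line difference of Amotl2 (0.048).

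Counts of called members moved by over 1.5 times as follows. With only the arrays compared in the fit, they were 1 of 8 at 0.5 h (3 in the report), 2 at 2 h in NBTII-FGFR1 (4), 0 at 2 h and 0 at 6 h in NBTII (2 and 3), 0 and 2 for the early and late line differences (1 and 1), 0 and 5 for the steps from 2 to 6 h and 24 to 48 h in NBTII-FGFR1 (4 and 3), and 1 and 2 for these steps in NBTII (2 and 0). Of the 8, the counts of 0 have 7, 5, 1 and 4 unadjusted limma p-values under 0.05, in that order. With array weights they were 2 at 2 h in NBTII-FGFR1, 0 and 2 for the line differences (1 of 8 unadjusted under 0.05 in the early one), 5 for the step from 24 to 48 h in NBTII-FGFR1, and 1 and 2 for the steps in NBTII. With trend and robust set, 1 passed from 24 to 48 h in NBTII. Without probe sets below the median, 0 differed late between the lines, as Dsc2 was not tested (1 unadjusted under 0.05). Without both doubted libraries, 1 passed at 0.5 h, 2 at 2 h and 1 at 24 h in NBTII-FGFR1, and 2 from 2 to 6 h.

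With 1 array left out, the counts were 0 to 3 at 0.5 h, 2 to 4, 2 to 4, 1 to 3 and 3 to 5 at 2, 6, 24 and 48 h in NBTII-FGFR1, 2 to 3, 3, 0 and 0 at these times in NBTII, 4 to 5 and 5 to 7 from early to late in NBTII-FGFR1 and NBTII, 0 to 1 and 1 to 2 for the line differences, 0 to 1 for line by time, 2 to 4 and 1 to 4 for the steps in NBTII-FGFR1, and 1 to 2 and 0 to 1 for those in NBTII.

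Counts over all probe sets moved too, from the lowest to the highest over the alternatives: 147 to 664 at 0.5 h (349 in the main setting), 259 to 1753 (1483), 1898 to 3825 (3382), 114 to 1715 (999) and 1850 to 4848 (3393) at 2, 6, 24 and 48 h in NBTII-FGFR1, and 28 to 759 (466), 0 to 1376 (936), 43 to 280 (149) and 12 to 466 (144) in NBTII, where the 0 has 2969 unadjusted limma p-values under 0.05. They were 1778 to 2874 (2724) and 1251 to 2377 (1889) from early to late in NBTII-FGFR1 and NBTII, 143 to 1353 (587) and 795 to 3497 (1815) for the line differences, and 5 to 228 (26) for line by time. For the steps they were 265 to 3613 (2695) and 356 to 2777 (1518) in NBTII-FGFR1, and 113 to 741 (523) and 0 to 223 (10) in NBTII, where the 0 without NBTII 24 h replicate 2 has 931 such p-values and that without NBTII 48 h replicate 2 has 1043.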
